A study of Homo sapiens with 60 samples.

Results

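The comparison described here is of HT29 cells treated with Cinnamomi Cortex at 500 µg/mL against HT29 cells given the vehicle alone, over all expressed genes. HT29 is an established line from a human colorectal adenocarcinoma. By the sample labels it takes in 6 of the 60 libraries of the series, 3 treated and 3 vehicle. The series profiled RNA from this line after 24 h with water extracts of single plant drugs and of herbal formulae, each at 500, 100 and 20 µg/mL. The treated cells received the water extract of Cinnamomi Cortex, which is dried cinnamon bark, and the control cells received dimethyl sulfoxide (DMSO), which the sample labels give as 0.1% and the series' design text as 2%. The design text adds that extracts with a low 20% inhibitory concentration were used at that concentration, whereas the labels give the nominal dose, so 500 µg/mL is the labelled dose. The labels do not state whether the 3 replicates of a group came from separate cultures, and the p-values then cover only the variation among the libraries, possibly a technical one.

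Cinnamon bark holds electrophilic compounds, of which cinnamaldehyde is the best known. The labels do not give the composition of the water extract. Cells meet electrophiles through the sensor KEAP1, which releases the factor NRF2 to switch on genes for reductases, glutathione and NADPH at antioxidant response elements. Sterol and fatty acid genes are driven by the SREBP factors when membrane sterol is low, metallothioneins by the zinc-sensing factor MTF1 at metal response elements, and amino acid stress genes by ATF4. Retinoid genes respond to retinoic acid, which the enzyme ALDH1A3 makes.

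Total expected counts were 26614906, 24034584 and 20701950 in vehicle replicates 1 to 3 and 23057614, 34257454 and 21904394 in the treated replicates. No label names a library set. Sets were inferred from the sample codes, with earlier results of these data known. The 3 vehicle libraries and treated replicate 1 were placed in a first set, and treated replicates 2 and 3 in a second. Replicates 2 and 3 may therefore differ from replicate 1 by library set. On the first principal component of the series, with 15.7% of the variance, treated replicates 1 and 2 lay at -21.2 and -16.0. They lay among the vehicle libraries at -8.54, -14.6 and -25.3, and replicate 3 lay apart from these at 14.4. Apart from replicate 2, libraries placed in the second set lay at 2.09 to 25.4, and all those of the first set were negative. Replicate 2 thus lay against its placing and replicate 3 with it. The library set term counts replicate 2 in the second set, and the effect of that was not tested. Treated replicates 1 and 2 also differed least from each other, by 3.06 times the chi-square expected from counting, against 23.1 and 24.7 times for the pairs with replicate 3. In replicate 3 genes rich in G and C read higher. Its median difference from the vehicle mean rose from -0.14 in the lowest of 5 equal groups of genes ordered by GC content to 0.19 in the highest (log2), while replicates 1 and 2 ran from -0.05 and -0.04 to 0.06 and 0.06. Mitochondrially encoded mRNA took 10.1%, 10.3% and 7.05% of the treated libraries and 8.71%, 9.89% and 11.4% of the vehicle libraries. All 12 colorectal epithelial markers were present, with summed levels of 11578 to 12087 CPM (counts scaled to library size) in the vehicle and 12525 to 14207 in the treated libraries. T cell genes CD3E and CD3D, the B cell gene MS4A1, the liver gene ALB, the endothelial genes CDH5 and KDR and the fibroblast genes COL1A2 and PDGFRA were at 0 in all 6 libraries. The leukocyte sum of 1401 to 1518 CPM came almost wholly from LYZ, and 10 of its 14 members were under 1 CPM in every library. The hepatocyte sum of 365 to 477 CPM came almost wholly from SERPINA1, with 10 of 11 members under 1 CPM throughout. Of the endothelial sum of 48.0 to 51.2 CPM, ESAM made up 44.6 to 48.0 CPM, and 6 of 9 members were under 1 CPM throughout.

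**Figure D1:**
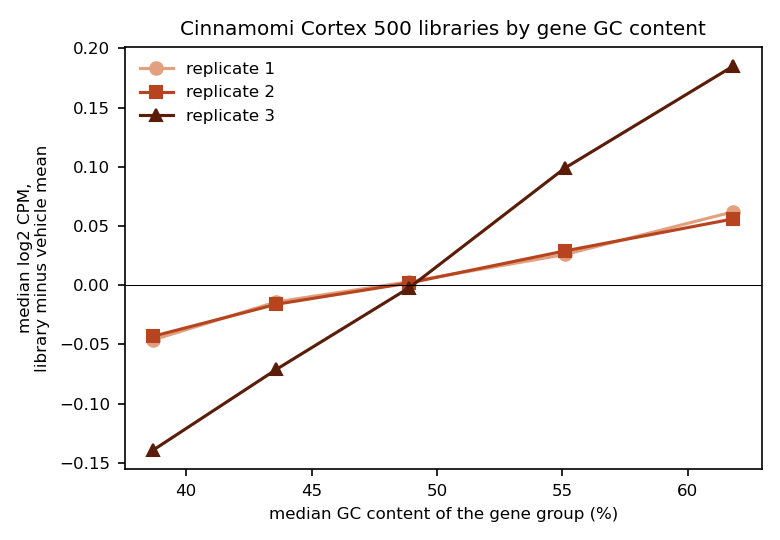
Median difference in log2 CPM between each treated library and the vehicle mean (y axis), over 5 equal groups of the genes tested, ordered by GC content (x axis, median GC of the group in %). Replicates 1 and 2 rise by about the same small amount, and replicate 3 runs from -0.14 to 0.19.

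The metallothioneins had the largest median change of any gene list, and the sequences before their starts are shown because they carry the motif that the list is known for. Each line gives the 250 bases before the gene's RefSeq start (GRCh38.p14), 5′ to 3′ on the gene's strand, with the core of the metal response element (TGCNCNC, either strand) in capitals. MT2A is at chr16:56608334-56608583 and MT1X at chr16:56682220-56682469, both on the plus strand.
MT2A: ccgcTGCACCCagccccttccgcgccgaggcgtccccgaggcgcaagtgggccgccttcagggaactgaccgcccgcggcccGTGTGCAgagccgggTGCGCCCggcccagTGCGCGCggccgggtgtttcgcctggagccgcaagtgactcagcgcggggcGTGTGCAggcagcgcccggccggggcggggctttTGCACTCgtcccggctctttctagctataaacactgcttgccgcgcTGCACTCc
MT1X: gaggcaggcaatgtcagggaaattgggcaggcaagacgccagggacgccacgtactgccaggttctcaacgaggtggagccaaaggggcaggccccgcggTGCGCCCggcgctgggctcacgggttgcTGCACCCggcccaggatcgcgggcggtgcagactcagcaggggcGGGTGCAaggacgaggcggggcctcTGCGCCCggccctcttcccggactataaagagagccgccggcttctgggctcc
MT2A held 7 matches and MT1X 4. Of the 27305 promoters in the table, 48.4% held at least 1 match, 1.70% held 4 or more and 0.10% held 7 or more, so the number of matches and not their presence set these apart. Of the 11 metallothioneins listed, 5 were in the table, and MT1E, MT1F, MT1G and MT1A were not among them.

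Motifs of the other pathways were less frequent before the starts of their genes. The malic enzyme gene ME1 (chr6:83431052-83431301, minus strand) is shown with its 1 match to the antioxidant response element core (TGACNNNGC, either strand) in capitals, 137 bases before the start, and the glutathione-degrading gene CHAC1 (chr15:40953221-40953470, plus strand) with its 1 match to the ATF4 element (TGATGNAA, either strand), 209 bases before the start.
ME1: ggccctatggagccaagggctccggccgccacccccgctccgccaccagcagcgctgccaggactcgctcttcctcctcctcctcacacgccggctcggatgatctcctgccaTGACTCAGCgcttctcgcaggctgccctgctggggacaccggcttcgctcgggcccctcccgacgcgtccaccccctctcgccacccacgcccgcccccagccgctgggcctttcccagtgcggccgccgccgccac
CHAC1: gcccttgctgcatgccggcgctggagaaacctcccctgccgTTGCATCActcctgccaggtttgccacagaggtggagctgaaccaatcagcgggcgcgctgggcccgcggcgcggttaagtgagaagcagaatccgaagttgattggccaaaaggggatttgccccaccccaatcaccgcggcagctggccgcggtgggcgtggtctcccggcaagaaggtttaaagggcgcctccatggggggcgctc
The antioxidant element core stood before 16 of the 107 promoters found for the NRF2 lists (15.0%), against 3013 of all 27305. For aldo-keto and quinone reductases, 2 of the 13 promoters found held it. AKR7A2 held 3 matches and did not pass (-0.006 ± 0.058), while CBR1 held 1 and rose by 0.41 ± 0.07. No match was found for AKR1C1, AKR1C2, AKR1B10, NQO1 or HMOX1, whose promoters either lacked it or were not among those found. The ATF4 element stood before 5 of 45 promoters of the amino acid and tRNA synthetase lists (11.1%), against 3.20% of all. The sterol element TCACNCCAC stood before 2 of 60 promoters of the cholesterol, sterol uptake and fatty acid lists together (3.3%), against 0.90% of all. None of the 18 cholesterol synthesis promoters in the table held it. A match is a description of these letters only.

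Against the vehicle, 2113 of 16356 genes tested passed edgeR's quasi-likelihood test at an adjusted p under 0.05 (12.9%), of which 1018 were higher (6.22%) and 1095 lower (6.69%). Most changes were small. Only 22 of the higher and 68 of the lower genes changed by 1 or more on the log2 scale, and 892 and 782 by less than 0.5. Of all genes tested, 4289 (26.2%) had treated and vehicle libraries that did not overlap. The higher genes had a median GC content of 56.3% and a median length of 2886 bases, the lower genes 42.6% and 4702 bases, and genes not called 48.9% and 2815 bases. Without treated replicate 3, 1128 genes passed, 468 higher and 660 lower. With a term for the library set, 1929 passed (11.8%), and 1343 of the 2113 kept their call and direction. Replicate 1 alone against the 3 vehicle libraries, all of the first set, gave 504 of 16710 genes (3.02%). That fit takes its spread from the groups of the first set with 3 libraries, and the lone treated library is assumed to vary like them.

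Reductases of the NRF2 battery rose. Of the 14 tested aldo-keto and quinone reductases, which reduce reactive aldehydes and quinones, 10 rose and none fell, with a median log2 fold change of 0.45 against 0.00 over all genes tested. The count was 10 also without replicate 3 and with the library set term. In replicate 1 alone it was 9. AKR1C2 (ENSG00000151632, chromosome 10, 4987400 to 5018031), a hydroxysteroid and carbonyl reductase, read 11.9, 9.64 and 11.3 CPM in the vehicle and 36.4, 33.4 and 36.9 CPM in the treated libraries. The groups were far apart, and its log2 fold change was 1.70 ± 0.10 (SE, adjusted p = 2.0e-18 by edgeR). AKR1C1, its near-identical neighbour, read 16.6, 14.6 and 14.0 CPM against 40.9, 40.0 and 43.5 CPM (1.45 ± 0.09), and AKR1C3 rose by 0.89 ± 0.12. Reads that match several AKR1C genes are divided among them by estimation, so their values relative to each other are uncertain. AKR1B10, which reduces retinal and other aldehydes, read 98.7, 88.3 and 86.8 CPM against 190, 176 and 185 CPM, a change of 1.01 ± 0.06. NQO1, the quinone reductase often used as a marker of NRF2, rose by a smaller 0.43 ± 0.05, from 424 to 490 CPM in the vehicle to 593 to 651 CPM. ALDH3A1, PTGR1, ALDH1A1 and CBR1 rose by 0.64 ± 0.06, 0.51 ± 0.05, 0.47 ± 0.05 and 0.41 ± 0.07.

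Of 19 genes tested that take part in the supply of NADPH, which those reductases consume, 6 rose and none fell (median 0.15), also without replicate 3. ME1, whose upstream sequence is given above, read 93.5, 92.7 and 89.1 CPM against 144, 147 and 146 CPM, with no overlap (0.67 ± 0.04). The transketolase TKT rose by 0.54 ± 0.05, the dehydrogenase PGD by 0.33 ± 0.04 and the transaldolase TALDO1 by 0.28 ± 0.05.

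The glutathione list moved less. Of its 24 members tested, 4 rose and none fell (median 0.18), and 8 rose with the library set term and 6 without treated replicate 1, where 1 also fell. GCLM and GCLC, the subunits of the enzyme that starts glutathione synthesis, rose by 0.53 ± 0.08 and 0.37 ± 0.08. Glutathione reductase GSR rose by 0.34 ± 0.05 and the cystine importer SLC7A11 by 0.30 ± 0.07. In the thioredoxin list 5 of 19 rose and 3 fell. TXNRD1, thioredoxin reductase, rose by 0.40 ± 0.09 and SRXN1 by 0.37 ± 0.06, while TXNIP, the inhibitor of thioredoxin, fell by 0.26 on the log2 scale (SE 0.06) and SESN1 by 0.29 (SE 0.05).

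Of 18 heme and iron genes, 7 rose and none fell (median 0.19). HMOX1, which degrades heme, read 10.8, 9.90 and 11.4 CPM in the vehicle and 19.0, 19.0 and 20.9 CPM after treatment. That is a change of 0.88 ± 0.08 (adjusted p = 3.0e-11). Both ferritin chains rose, FTL by 0.51 ± 0.09 and FTH1 by 0.39 ± 0.07, and the porphyrin transporter ABCB6 by 0.56 ± 0.08. Among the 10 genes of NRF2 control, 6 rose, but 3 without treated replicate 3, 3 without vehicle replicate 3 and 3 with the library set term. OSGIN1, a target, and SQSTM1, which binds KEAP1, rose by 0.43 ± 0.10 and 0.36 ± 0.06 and passed in those fits. KEAP1 itself (0.25 ± 0.08) and MAFG (0.21 ± 0.06) had adjusted p of 0.47 and 0.27 without replicate 3, and neither passed without vehicle replicate 2 or vehicle replicate 3. NFE2L2, the gene of NRF2, read 146 to 147 CPM in the vehicle and 145, 133 and 115 CPM in the treated libraries and did not pass (-0.16 ± 0.07, adjusted p = 0.12), but passed without treated replicate 1 (adjusted p = 0.023).

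Of 22 conjugation and efflux genes, 9 rose and none fell (median 0.07). ABCC2, an apical export pump for conjugates, read 1.93, 1.23 and 1.10 CPM against 3.52, 3.69 and 3.18 CPM, a change of 1.26 ± 0.22 at a low level. UGT1A6, a glucuronosyl transferase that shares exons with other UGT1A genes, rose by 0.63 ± 0.05 and the epoxide hydrolase EPHX1 by 0.43 ± 0.06. Genes of the aryl hydrocarbon receptor divided. Of the members of that list that passed, NQO1, ALDH3A1 and UGT1A6 rose, as given above, and CYP1B1 and CYP1A1 fell. CYP1B1 fell from 87.8, 55.3 and 53.5 CPM to 37.7, 35.8 and 31.1 CPM (-0.91 ± 0.09), and vehicle replicate 1 was high. CYP1A1 read 5.75, 0.59 and 1.10 CPM in the vehicle and 0.18, 0.46 and 0.33 CPM in the treated libraries. Its log2 fold change of -2.90 ± 0.46 rested largely on vehicle replicate 1 and was -1.30 ± 0.37 without it (adjusted p = 0.017). The receptor gene AHR did not pass (-0.17 ± 0.06, adjusted p = 0.056), but passed without treated replicate 2 (adjusted p = 0.036) and without vehicle replicate 1 (adjusted p = 0.0275).

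**Figure D2:**
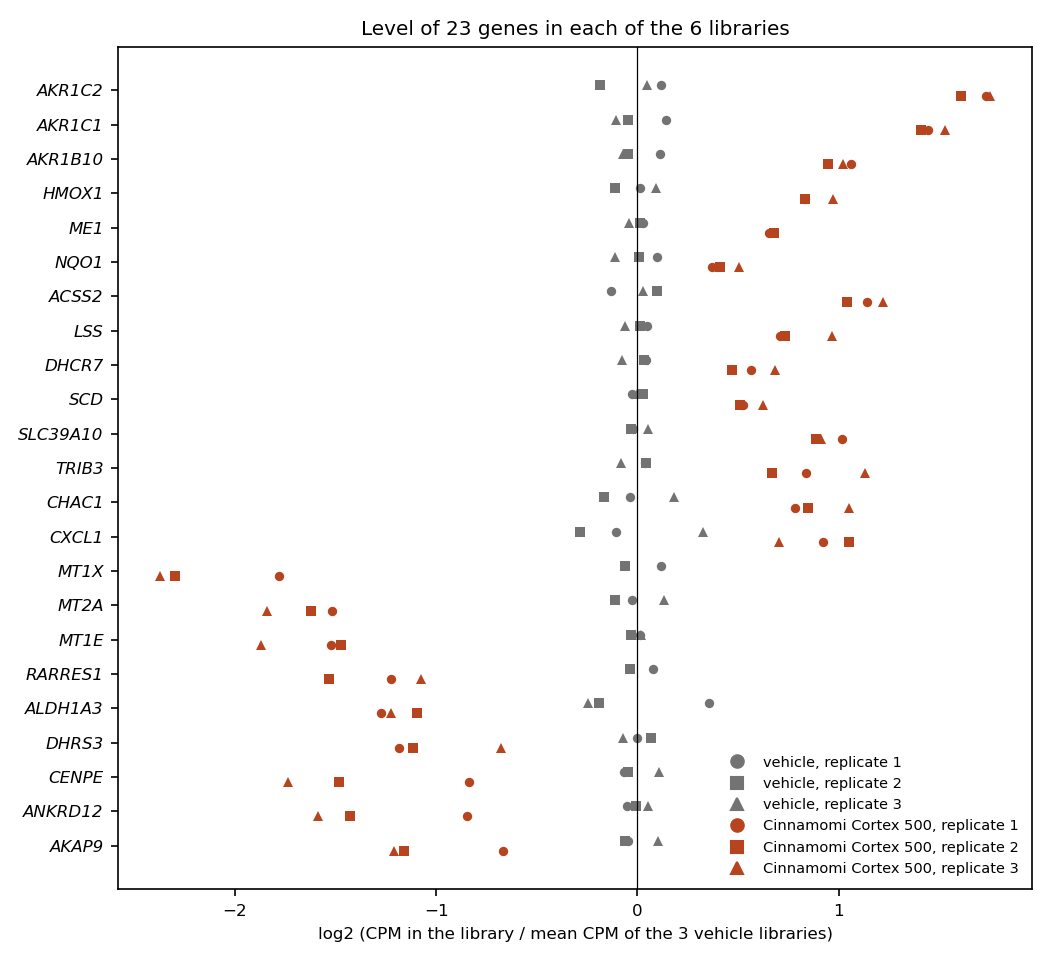
Level of 23 genes in each of the 6 libraries, as log2 of the CPM over the mean of the 3 vehicle libraries (x axis); grey is vehicle, red-brown is Cinnamomi Cortex 500, and the marker gives the replicate. AKR1C2 stands highest and MT1X lowest, and for CENPE, ANKRD12 and AKAP9 treated replicate 1 lies between the vehicle and replicates 2 and 3.

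Cholesterol synthesis rose almost as a whole. Of its 23 genes, all tested, 20 rose and none fell, with a median of 0.53. The count was 20 without replicate 3 and with the library set term. In replicate 1 alone, 1 library, it was 19. LSS, which closes the sterol ring system, read 108, 106 and 100.2 CPM in the vehicle and 171, 174 and 204 CPM after treatment. The change was 0.80 ± 0.06 (adjusted p = 1.0e-13). Genes of the mevalonate steps rose by like amounts, with MVD at 0.77 ± 0.08, MVK at 0.72 ± 0.09 and IDI1 at 0.59 ± 0.08. SQLE and DHCR7, which act early and last in the sterol branch, rose by 0.57 ± 0.08 and 0.58 ± 0.05.

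Of 22 tested genes of fatty acid synthesis, 12 rose and none fell (median 0.26). ACSS2 (ENSG00000131069, chromosome 20, 34872146 to 34927962), which makes acetyl-CoA from acetate, read 23.6, 27.7 and 26.3 CPM in the vehicle and 57.1, 53.2 and 60.3 CPM after treatment. Every treated library was about as far above the vehicle as the others, and the change was 1.14 ± 0.08 (adjusted p = 6.3e-15). The acyl-CoA synthetase ACSL1 rose by 0.70 ± 0.08, and the citrate carrier SLC25A1 by 0.58 ± 0.07. The desaturase SCD read 1819, 1894 and 1853 CPM against 2668, 2637 and 2854 CPM (0.55 ± 0.04). FASN, ACLY and ACACA rose by 0.50 ± 0.07, 0.41 ± 0.04 and 0.31 ± 0.05.

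Genes of sterol uptake and SREBP control gave 10 higher and 1 lower of 22, and 7 higher and none lower without replicate 3. INSIG1, which holds SREBP in the endoplasmic reticulum and is itself a target, rose by 0.52 ± 0.10, LPIN1 by 0.60 ± 0.14 and TMEM97 by 0.39 ± 0.05. SREBF2 rose by a small 0.20 ± 0.04, and SREBF1 did not pass (0.06 ± 0.04, adjusted p = 0.42). NPC1L1, the cholesterol importer of the gut, was near the lower limit at 0.08, 0.34 and 0.30 CPM against 0.46, 0.70 and 1.03 CPM, and did not pass without replicate 3 (adjusted p = 0.076) or without vehicle replicate 1 (adjusted p = 0.090). The sterol exporter ABCA1, a target of the LXR receptors, fell by 0.53 on the log2 scale (SE 0.12), and by 0.37 without replicate 3 (adjusted p = 0.050).

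Metallothioneins, the small proteins that bind zinc and copper, fell. Of 6 tested, 4 fell and none rose, with a median of -1.62. MT2A (ENSG00000125148) read 42.0, 39.6 and 46.9 CPM in the vehicle and 15.0, 13.9 and 11.96 CPM after treatment. The groups were far apart, and the change was -1.65 ± 0.18 (adjusted p = 9.6e-10). MT1E read 91.6, 88.7 and 91.9 CPM against 31.6, 32.8 and 24.9 CPM (-1.60 ± 0.15). MT1X read 3.41, 3.02 and 3.01 CPM against 0.91, 0.64 and 0.61 CPM (-2.14 ± 0.23). MT1F, under 1 CPM throughout, changed by -1.64 ± 0.46 and did not pass without replicate 3 (adjusted p = 0.072) or without vehicle replicate 1 (adjusted p = 0.12), and MT1G and MT1A did not pass (adjusted p = 0.22 and 0.21). Metallothionein genes are alike in sequence, so their shares of reads are estimates.

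SLC39A10, a zinc importer of the plasma membrane, read 40.5, 40.3 and 42.7 CPM in the vehicle and 83.2, 76.0 and 77.4 CPM after treatment. Its change of 0.94 ± 0.05 had the smallest adjusted p of all genes with a value printed here (4.4e-19). Of the 12 importers tested, 4 rose and none fell, but only SLC39A10 by more than 0.30, and without vehicle replicate 3 it was the only one to pass. Of 7 genes tested for zinc exporters and the zinc sensor, 1 fell and none rose, and 2 fell without treated replicate 2 and without vehicle replicate 3. The one that fell, the exporter SLC30A1, read 43.5, 41.5 and 37.4 CPM against 28.7, 29.4 and 27.7 CPM (-0.51 ± 0.08). The sensor gene MTF1 did not pass (0.09 ± 0.05, adjusted p = 0.32).

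The amino acid response that ATF4 drives was raised. Of its 34 genes tested, 19 rose and 1 fell (median 0.22), 13 and 1 without replicate 3, and 5 and none in replicate 1 alone. TRIB3, a pseudokinase induced by ATF4, read 32.0, 32.2 and 29.4 CPM in the vehicle and 55.8, 49.5 and 68.4 CPM after treatment. The change was 0.88 ± 0.09 (adjusted p = 1.7e-10). CHAC1, which degrades glutathione and whose upstream sequence is given above, read 2.46, 2.25 and 2.86 CPM against 4.34, 4.54 and 5.23 CPM (0.90 ± 0.16). ATF3 rose by 0.80 ± 0.14 and asparagine synthetase ASNS by 0.41 ± 0.05. ATF4 rose by 0.18 ± 0.06 at an adjusted p of 0.032, which 5 of the 6 fits without 1 library did not reach. DDIT3, the gene of CHOP, read 4.67 to 5.94 CPM in the vehicle and 5.03 to 5.37 CPM after treatment and did not pass (0.00 ± 0.12, adjusted p = 1.00). Of 20 tRNA synthetases 9 rose, but 3 without replicate 3, and SARS1 led those that passed in both fits at 0.21 ± 0.05.

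Of 17 cytosolic heat shock genes 7 rose and none fell, with HSPA1A at 0.41 ± 0.07 and its near-identical copy HSPA1B at 0.43 ± 0.08. Of 24 chaperones of the endoplasmic reticulum 8 rose and none fell, 5 without vehicle replicate 3, with HSPA5 at 0.20 ± 0.05 and P4HB at 0.22 ± 0.04. Of 32 proteasome subunits 11 rose, but 2 without treated replicate 3, 2 without vehicle replicate 3, 6 without vehicle replicate 2 and 6 with the library set term. Of 23 genes of glycolysis 12 rose and none fell, and 7 without replicate 3. ALDOC, an aldolase, and PFKFB4, which sets glycolytic flux, rose by 0.79 ± 0.08 and 0.79 ± 0.15. None of the 44 cytosolic ribosomal protein genes passed (median 0.04).

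**Figure D3:**
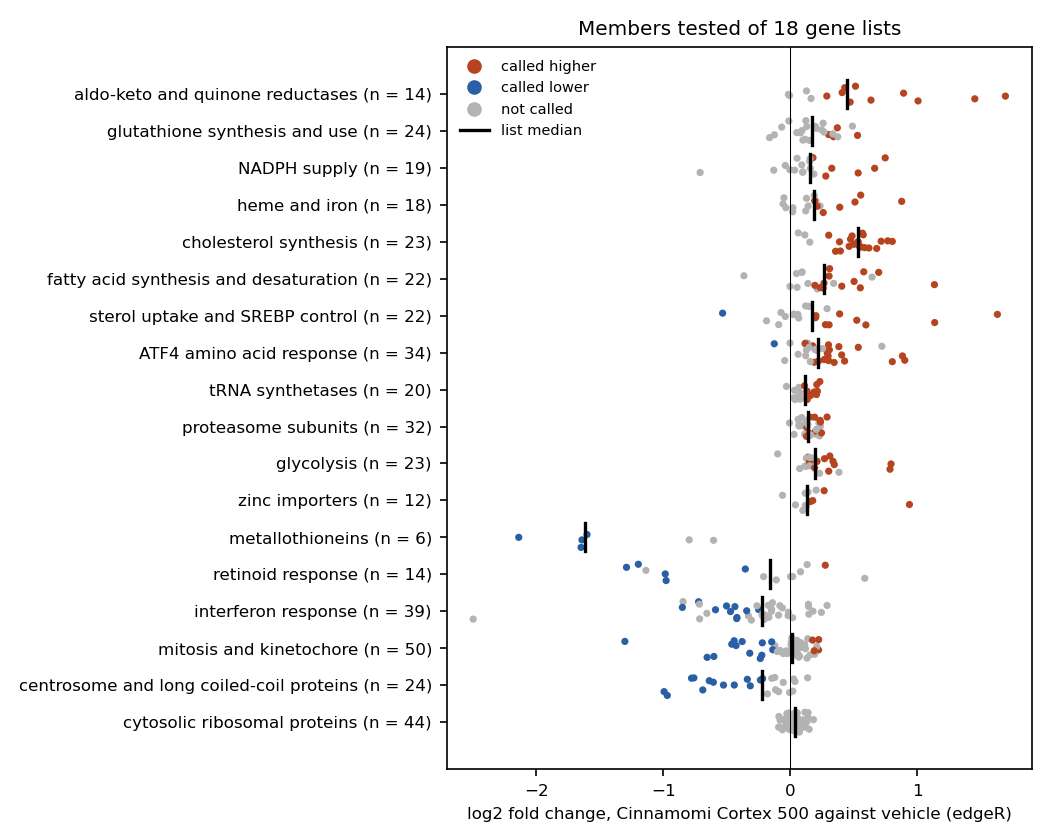
Log2 fold change of each tested member of 18 gene lists (x axis), Cinnamomi Cortex 500 against vehicle; red-brown points were called higher, blue called lower and grey not called, and the black bar is the list median. The median is 0.53 for cholesterol synthesis and -1.62 for metallothioneins.

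Of 14 retinoid genes tested, 5 fell and 1 rose (median -0.16), the same counts as without replicate 3 and with the library set term. RARRES1, a retinoic acid induced membrane protein, read 9.01, 8.32 and 8.33 CPM in the vehicle and 3.66, 2.96 and 4.07 CPM after treatment (-1.29 ± 0.14). ALDH1A3, which makes retinoic acid, read 38.9, 26.7 and 25.7 CPM against 12.6, 14.2 and 13.0 CPM (-1.20 ± 0.10), and vehicle replicate 1 was the highest. DHRS3, which reduces retinal back to retinol, read 26.9, 28.2 and 25.6 CPM against 11.8, 12.4 and 16.8 CPM (-0.99 ± 0.10). None of these groups overlapped. STRA6, the retinol importer, fell by 0.98 on the log2 scale (SE 0.13) and TGM2 by 0.35 (SE 0.05). RDH11, a retinal reductase, rose by 0.28 ± 0.04. CYP26A1, which degrades retinoic acid, was under 1 CPM and did not pass (adjusted p = 0.20).

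Of 24 tested centrosome and long coiled-coil genes 13 fell and none rose (median -0.23), 13 without replicate 3 and 7 in replicate 1 alone. AKAP9, a scaffold of centrosome and Golgi, read 160, 158 and 177 CPM in the vehicle and 104, 73.9 and 71.3 CPM after treatment (-0.99 ± 0.08). GOLGA4, a golgin, read 122, 130 and 137 CPM against 83.0, 58.0 and 58.3 CPM (-0.97 ± 0.08). In both genes replicate 1 lay between the vehicle and replicates 2 and 3, without overlap. CEP290 fell by 0.78 on the log2 scale (SE 0.10) and GOLGB1 by 0.61 (SE 0.06). This list had a median length of 5931 bases and a median GC content of 41.3%, and among 5 equal groups of all genes by length the longest had 14.5% called lower, against 2.40% in the shortest. Whether length or GC content plays a part was not tested.

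In the mitosis list 13 of 50 fell and 4 rose (median 0.01), 9 and 2 without replicate 3. The kinesin CENPE, which moves chromosomes to the spindle equator, read 72.3, 73.2 and 81.6 CPM in the vehicle and 42.4, 27.1 and 22.8 CPM after treatment. The change was -1.30 ± 0.12 (adjusted p = 5.6e-12), and -0.83 in replicate 1 alone. CENPF fell by 0.66 on the log2 scale (SE 0.07) and MKI67 by 0.44 (SE 0.08). The CENPE transcript has 8612 bases and a GC content of 35.3%. Among the 5 equal groups of all genes by GC content, the lowest had 14.4% called lower, against 1.9% in the highest. Whether length or GC content plays a part in this list was not tested. Among the 4 that rose were AURKB at 0.22 ± 0.06 (adjusted p = 0.070 without vehicle replicate 3) and CDC25B at 0.22 ± 0.05. Of 42 genes of DNA replication 3 rose and none fell, and 1 rose without replicate 3. That is near the share of all genes tested that were higher (6.22%). CDKN1A, the inhibitor p21, read 14.2, 16.4 and 15.2 CPM against 26.8, 23.2 and 27.7 CPM (0.76 ± 0.08). Of the 25 p53 targets and CDK inhibitors, 3 rose and 1 fell, and 1 rose and 1 fell without replicate 3. Of all genes tested 6.22% were higher and 6.69% lower.

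KRT20, a keratin of mature gut epithelium, rose from 294, 314 and 267 CPM to 423, 385 and 396 CPM (0.46 ± 0.07), and the WNT-dependent stem cell gene LGR5 fell from 39.6, 39.6 and 44.6 CPM to 31.3, 30.8 and 27.1 CPM (-0.47 ± 0.05). In bulk RNA, fewer cells of a kind and less RNA per cell cannot be told apart. Of 28 differentiation genes 5 rose and 2 fell, but 3 and none both without treated replicate 3 and without vehicle replicate 3. Of 25 claudin and junction genes 3 rose and 2 fell, 2 and 1 without vehicle replicate 2. Claudin CLDN2, which forms a cation pore, fell by 0.59 on the log2 scale (SE 0.07), while CLDN4 rose by 0.46 ± 0.09. Of 22 mucin and goblet cell genes 2 rose and 2 fell (median -0.03), and without treated replicate 3 none rose and 1 fell. Over all genes tested 6.22% were higher and 6.69% lower, and the mucin counts lie near those shares. MUC2, the secreted gel mucin, fell by 0.53 (SE 0.13) and SPINK1 by 0.42 (SE 0.11), while the goblet cell factors ATOH1 and SPDEF rose by 0.51 ± 0.17 and 0.23 ± 0.06. Without replicate 3, MUC2 was the one that passed, and neither factor passed without vehicle replicate 1. Of 17 WNT targets 3 fell and none rose, and 1 fell without vehicle replicate 2. Of 25 genes of MAPK feedback and the immediate early response 7 rose and none fell (median 0.12), but 3 rose without treated replicate 3, 3 without vehicle replicate 2, and 4 without treated replicate 2, where 1 fell. The phosphatase gene DUSP6 rose by 0.30 ± 0.06 and FOS by 0.43 ± 0.11, and FOS did not pass without vehicle replicate 2 (adjusted p = 0.061). Chemokine CXCL1 read 1.97, 1.74 and 2.66 CPM against 4.02, 4.39 and 3.46 CPM (0.93 ± 0.21) and CXCL8 rose by 0.56 ± 0.11, in a list with 5 higher and 2 lower of 22.

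Interferon response genes gave 10 lower and none higher of 39 tested (median -0.22), 6 lower without replicate 3, 5 lower and 1 higher without vehicle replicate 2 and 2 lower in replicate 1 alone. PARP14 read 155, 157 and 155 CPM in the vehicle and 118, 115 and 116 CPM after treatment (-0.42 ± 0.04). SAMD9, an antiviral factor, read 78.6, 86.6 and 77.4 CPM against 54.1, 47.1 and 46.0 CPM (-0.72 ± 0.09). MX1 and OAS2 passed (-0.47 ± 0.15 and -0.85 ± 0.25) but not without vehicle replicate 2, in which both were highest (adjusted p = 0.26 and 0.23). Neither passed without treated replicate 2 (0.12 and 0.10), without treated replicate 3 (0.11 and 0.080) or with the library set term (0.10 and 0.076).

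The genes with the largest changes included some outside these lists. ANKDD1A, of little known function, read 4.77, 4.29 and 4.82 CPM in the vehicle and 1.14, 0.73 and 0.75 CPM after treatment, the largest decrease under the naming rule (-2.42 ± 0.23). ANKRD12, an ankyrin repeat cofactor, read 59.7, 61.5 and 64.2 CPM against 34.4, 23.0 and 20.6 CPM (-1.26 ± 0.10). HMGN5, a nucleosome-binding protein, and EPB41L4A fell by 1.23 (SE 0.15) and 1.32 (SE 0.21). The microtubule protein MAP1A read 2.88, 4.04 and 4.46 CPM against 8.14, 6.89 and 6.92 CPM (0.96 ± 0.15). TMEM238 changed by 1.33 ± 0.41 but did not pass with the library set term (adjusted p = 0.17), nor without treated replicate 3, vehicle replicate 1 or vehicle replicate 2 (adjusted p = 0.18, 0.14 and 0.083). Chosen after their values were seen, prostaglandin synthase PTGS2 read 25.7, 23.4 and 20.5 CPM against 13.7, 14.5 and 13.4 CPM (-0.74 ± 0.06), and the factor GATA2 168, 159 and 175 CPM against 110.1, 113 and 113 CPM (-0.58 ± 0.05).

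**Figure D4:**
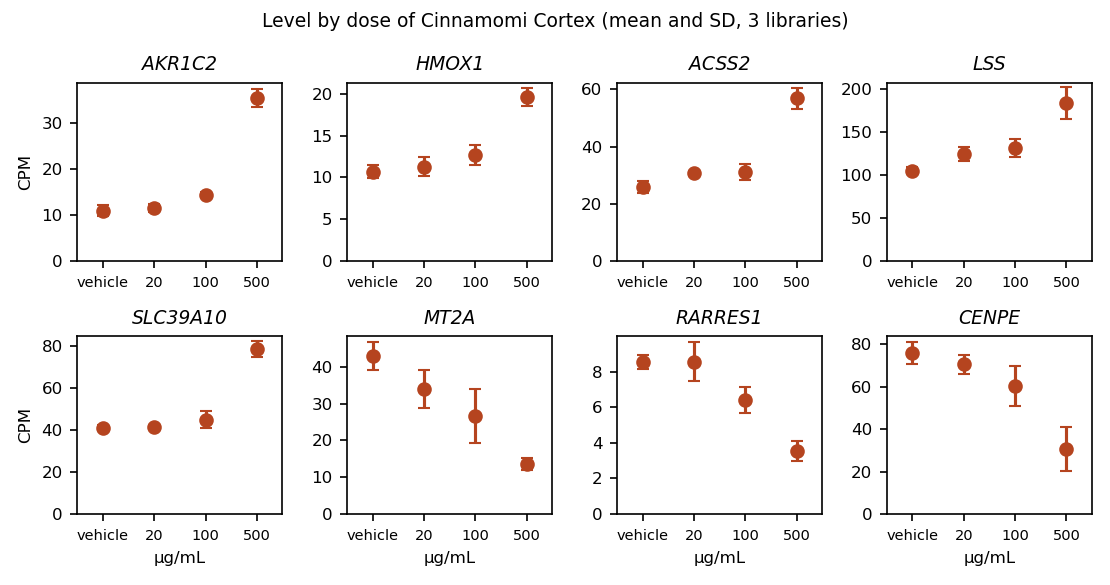
Level of 8 genes in CPM (y axis from 0) in the vehicle and at 20, 100 and 500 µg/mL of Cinnamomi Cortex (x axis), as mean and SD of 3 libraries. AKR1C2 and SLC39A10 stand near the vehicle level at 20 µg/mL and apart from it at 500 µg/mL. The mean of MT2A is lower at each higher dose, with an SD of 5.1 at 20 µg/mL and 7.3 at 100 µg/mL. The vehicle libraries were all placed in the first library set, and each dose holds libraries of both sets.

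The lower doses of the same extract place these levels. AKR1C2 averaged 11.6 ± 0.87 CPM (SD, n = 3) at 20 µg/mL, 14.5 ± 0.63 at 100 µg/mL and 35.6 ± 1.9 at 500 µg/mL. SLC39A10 averaged 41.3 ± 0.97, 45.0 ± 4.2 and 78.9 ± 3.8 CPM at those doses, so that most of its difference lay between 100 and 500 µg/mL. MT2A averaged 33.9 ± 5.1, 26.7 ± 7.3 and 13.6 ± 1.5 CPM. With Astragali Radix at 500 µg/mL it averaged 35.5 ± 5.1 CPM, and in the vehicle 42.9 ± 3.7 CPM. The vehicle libraries were all placed in the first library set, so for MT2A a step from vehicle to the lower doses cannot be told apart from library set. With the library set term the MT2A change at 500 µg/mL against vehicle was -1.39. RARRES1 averaged 8.57 ± 1.1, 6.43 ± 0.73 and 3.56 ± 0.56 CPM. Against 20 µg/mL, a comparison without the vehicle, 1670 genes passed (10.2%, with 4.60% of all tested higher and 5.61% lower). There AKR1C2 changed by 1.61 ± 0.09, ACSS2 by 0.89 ± 0.08, MT2A by -1.32 ± 0.18 and CENPE by -1.20 ± 0.12, and the aldo-keto list gave 10 of 14 higher, cholesterol synthesis 20 of 23 higher and retinoid genes 4 higher and 5 lower of 14.

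Against other single plant drugs at the same labelled dose the list counts differed by list. By the inferred sets, Astragali Radix has its first replicate in the first and the others in the second, as Cinnamomi Cortex does. Between these extracts 1767 genes differed (10.8%, with 4.97% higher and 5.83% lower). Against Astragali Radix, cholesterol synthesis was higher in 20 of 23 genes, aldo-keto reductases in 10 of 14 and metallothioneins lower in 4 of 6. ACSS2 was higher by 1.43 ± 0.08, SLC39A10 by 0.95 ± 0.05 and HMOX1 by 1.04 ± 0.08, and RARRES1 differed by -1.62 ± 0.14. In that comparison the median difference ran only from -0.02 to 0.01 from the lowest to the highest of the 5 GC groups.

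Against Cnidii Rhizoma, whose 3 libraries were all placed in the first set, 1508 genes differed (9.22%, with 4.32% higher and 4.90% lower). From the lowest to the highest GC group the median difference ran from -0.056 to 0.065, and against the vehicle from -0.076 to 0.097. Here the reductases split. AKR1B10 averaged 180 ± 2.5 CPM with Cnidii Rhizoma and 184 ± 7.46 CPM with Cinnamomi Cortex, a difference of 0.03 ± 0.05 (adjusted p = 0.83), and NQO1 and GCLM differed by 0.05 ± 0.05 and 0.05 ± 0.08 (adjusted p = 0.63 and 0.77). AKR1C2 was higher by 0.66 ± 0.09, AKR1C1 by 0.84 ± 0.09 and HMOX1 by 0.49 ± 0.08 with Cinnamomi Cortex, all past the test. ACSS2 at 1.43 ± 0.08, LSS at 0.82 ± 0.06, SLC39A10 at 0.98 ± 0.05 and MT2A at -1.52 ± 0.18 differed too, and 20 of 23 cholesterol synthesis genes were higher. These comparisons share the Cinnamomi Cortex libraries with each other and with the vehicle comparison, so their values are given side by side only.

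**Figure D5:**
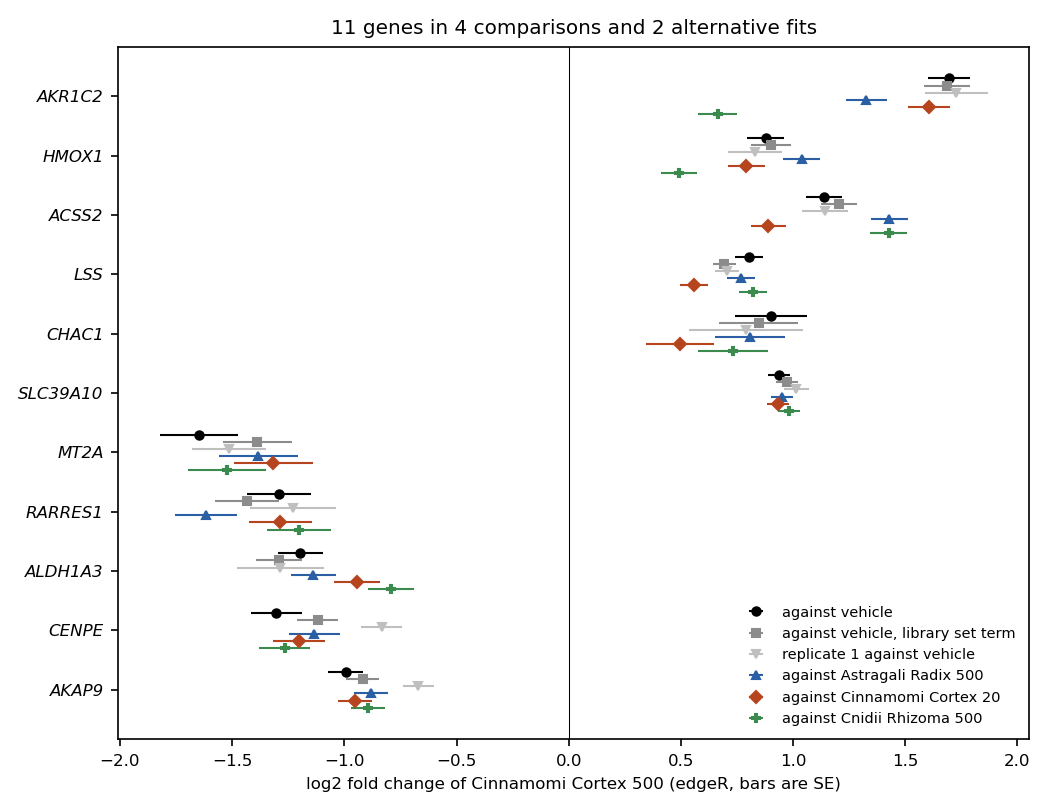
Log2 fold change of 11 genes (x axis, bars are SE) for Cinnamomi Cortex 500 against vehicle, Astragali Radix 500, Cinnamomi Cortex 20 and Cnidii Rhizoma 500, with 2 alternative fits against vehicle in grey. AKR1C2 differs least from Cnidii Rhizoma (0.66), while SLC39A10 lies between 0.93 and 1.02 throughout.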

How the data were processed

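The authors deposited expected counts per gene, estimated counts that need not be whole, in 1 table of 60675 Ensembl genes, not normalized. The tools named, per the submitters' processing notes and with no role or order, are RSEM 1.3.3, STAR 2.7.3a, Trim Galore 0.6.5 and FastQC 0.11.9, with the GRCh38 (hg38) genome. Neither strand setting nor annotation release is given in the sources used here, so antisense and overlapping genes are uncertain. Of its 273 columns, 60 are tied to these samples by the labels and 213 were not used.

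Counts were rounded to whole numbers (8.8% were not whole). edgeR 4.0.16 (R 4.3.3, quasi-likelihood test, TMM, filterByExpr with a minimum count of 10) was fitted on the 57 libraries of the 19 groups with 3 libraries, with 1 coefficient per group, and 16356 genes were tested. The 3 libraries of Paeoniae Radix, 1 per dose, were left out. P-values were adjusted by Benjamini-Hochberg over all genes within each of 4 comparisons, with calls made at an adjusted p under 0.05. Fold changes are log2 with their SE, and CPM are counts scaled to library size by TMM. Depth was 20701950 to 34257454 counts in the 6 libraries.

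The samples compared, the 48 gene lists, the motifs and the naming rule were chosen with earlier results of these data known. The rule takes, of the called genes, the 10 with the largest rise and the 10 with the largest fall that have a mean log2 CPM of at least 1, no overlap between groups and an ordinary symbol, up to 8 called members of each list, and a fixed panel, and some genes that it takes are not reported here. Names ending in HG or beginning with MIR were also passed over. Library sets were inferred from the sample codes and from earlier results, and no label names them. Alternatives were DESeq2 1.42.0, DESeq2's size factors, other filters, a set term, a replicate block, fewer libraries and leaving out each library. Coordinates are GENCODE release 29 on GRCh38, and upstream sequences are from RefSeq (GRCh38.p14).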

Additional observations from a re-analysis of the deposited data

How the results depend on the processing

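Of the 184 genes followed through 16 alternative fits, 176 were called, and none of these 176 changed direction in any of them. The naming rule mostly takes called genes with the largest changes, and the fits share libraries. A change of direction was therefore unlikely beforehand. Of the 176, 69 lost their call in at least 1 fit, and 21 with the library set term. The replicate block, which uses the replicate number as a term, gave 2475 genes called, and 1989 with the set term. Deviations of same-numbered libraries from their group means correlated at -0.07, -0.02 and -0.12, and those of differently numbered libraries at -0.06 to 0.11. With 3 libraries a group, and treated replicate 3 set apart, these values cannot show whether the numbers pair the libraries. DESeq2 called 2186 genes, DESeq2's size factors in edgeR 2189, a minimum count of 50 2145, no filter 1949 and leaving out mitochondrially encoded genes 2179.

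Counts moved by more than 1.5 times as follows. Replicate 1 alone against the vehicle gave 504 genes, 222 higher and 282 lower, and 131 of the 299 called list members. Fitting only the 6 libraries compared gave 669 genes (225 higher and 444 lower, 149 list members) against the vehicle, 604 against Astragali Radix, 483 against 20 µg/mL and 681 against Cnidii Rhizoma. Leaving out 1 library gave 1128 to 2146 genes against the vehicle, 468 to 1105 higher and 660 to 1041 lower, lowest without treated replicate 3. It gave 1052 to 1946 against Astragali Radix (lowest without its replicate 3), 972 to 1860 against 20 µg/mL (lowest without replicate 3 at 20 µg/mL) and 916 to 1342 against Cnidii Rhizoma, lowest without Cinnamomi Cortex replicate 3 and 931 without Cnidii Rhizoma replicate 2. The first 2 changes use fewer samples, and other causes were not tested. Genes near 1 CPM, such as MT1F, rest on few counts.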
